A study of Mus musculus with 10 samples.

Results

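The immediate early genes Fos, Fosb, Egr1, Egr2, Egr3, Nr4a1, Ier2, Arc, Npas4 and Dusp1 were followed in single cell RNA-seq (scRNA-seq) of mouse retinal ganglion cells (RGCs), the neurons whose axons form the optic nerve. They were taken by gene symbol, as well-known members of this gene class, and make up 10 of the 34254 genes counted in each library. The study profiled RGCs from uninjured retinas (6 libraries) and from retinas 2 weeks after optic nerve crush (ONC), an injury that severs RGC axons behind the eye (4 libraries). For both groups the labels give wild-type 129S1/SvImJ mice of both sexes at 12 weeks of age (P84), and the question here is how the level of each gene differed between injured and uninjured RGCs. Each batch pooled 10 retinas, RGCs were captured with an antibody against Thy1, a surface protein of these neurons, and 6000 cells per batch were loaded. Nothing states which libraries share animals, so p-values measure only the spread between these samples, which may be technical.

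Immediate early genes are transcribed within minutes of a stimulus, without the need for new protein, when calcium entry or growth factor signals reach transcription factors that already sit on their promoters. Most encode transcription factors that switch on later genes, and others encode synaptic proteins or enzymes that end the signal. In neurons they are widely used to read recent activity, and they also respond to axon injury and to the handling of tissue when cells are dissociated.

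The deposited files held 1683 uninjured and 1609 injured cells (1188 if barcodes shared by injured 3 and 4 are taken once), and a unique molecular identifier (UMI), a tag that marks 1 captured RNA molecule, was the unit of every count. Uninjured libraries held 2839693 to 23180399 UMIs and injured libraries 4698799 to 8860536. The median cell carried 20437 to 34337 UMIs in uninjured libraries and 11257 to 14695 in injured libraries. Every library held UMIs of all 7 RGC markers (Rbpms, Slc17a6, Sncg, Tubb3, Thy1, Nefl and Pou4f1), with a summed level of 6008 to 7709 CPM (counts scaled to the size of each library) in uninjured samples, and of 4112, 4606 and 5366 CPM in injured samples.

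Libraries of 1 condition were not equally alike. Injured 3 and injured 4 shared 421 cell barcodes and their counts differed by less than sampling noise (chi-square relative to noise 0.954), so they were averaged and treated as 1 sample, injured 3/4. No other pair shared more than 1 barcode. Close pairs (1.44 to 2.11) were formed by uninjured 1 with 2, uninjured 3 with 4, uninjured 5 with 6, and injured 1 with 2, whereas other pairs within a condition reached 3.46 to 15.9. The female transcript Xist had UMIs in 62.1% of cells for injured 1 and 67.4% for injured 2, whereas no other library exceeded 0.569%. Cells with this mark of female cells were thus common in only 2 of the 10 libraries, although the labels give both sexes for all, and Xist cannot be told apart from injury where injured 1 and 2 alone are set against uninjured libraries. The reporter mCherry had UMIs in 86.0% of cells for injured 3 and 84.3% for injured 4, against 7.99% for injured 1, 15.0% for injured 2 and 0 uninjured cells. The labels give no reason for either. Elsewhere the study injected eyes with viral vectors that carry mCherry before ONC. Whether any of these libraries came from such eyes cannot be told from the labels. Results are therefore also given without injured 3 and 4, which concerns mCherry only, and without injured 1 and 2, which concerns Xist and was chosen after seeing the data.

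Promoter sequences are shown for Fos, Fosb, Npas4, Nr4a1 and Dusp1, because these 5 genes differed between conditions and have a single RefSeq promoter entry (GRCm38.p6). Egr2 has 5 entries and almost no UMIs and is not shown, and Egr1, Egr3, Ier2 and Arc have no entry in that table. Each run covers the 250 bases before the transcription start, on the strand of the gene, from chr12:85473640-85473889 on the forward strand (Fos), chr7:19310046-19310295 on the reverse strand (Fosb), chr19:4989972-4990221 on the reverse strand (Npas4), chr15:101266596-101266845 on the forward strand (Nr4a1) and chr17:26508473-26508722 on the reverse strand (Dusp1). Capitals mark TGACG, read on either strand, which is the half-site of the cAMP response element through which CREB family factors act.
Fos: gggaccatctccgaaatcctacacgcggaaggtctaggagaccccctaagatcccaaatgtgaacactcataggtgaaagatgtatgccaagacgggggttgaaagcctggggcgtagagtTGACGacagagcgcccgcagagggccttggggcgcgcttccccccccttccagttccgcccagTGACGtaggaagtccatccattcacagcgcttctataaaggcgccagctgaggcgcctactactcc
Fosb: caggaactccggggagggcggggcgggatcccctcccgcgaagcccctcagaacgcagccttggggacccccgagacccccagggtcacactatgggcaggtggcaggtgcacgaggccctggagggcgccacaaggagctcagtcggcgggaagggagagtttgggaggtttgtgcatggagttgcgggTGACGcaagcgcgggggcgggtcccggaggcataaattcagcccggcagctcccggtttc
Npas4: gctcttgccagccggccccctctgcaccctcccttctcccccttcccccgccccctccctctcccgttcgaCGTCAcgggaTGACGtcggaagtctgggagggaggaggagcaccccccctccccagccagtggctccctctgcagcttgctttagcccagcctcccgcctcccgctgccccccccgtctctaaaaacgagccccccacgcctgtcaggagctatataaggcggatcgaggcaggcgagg
Nr4a1: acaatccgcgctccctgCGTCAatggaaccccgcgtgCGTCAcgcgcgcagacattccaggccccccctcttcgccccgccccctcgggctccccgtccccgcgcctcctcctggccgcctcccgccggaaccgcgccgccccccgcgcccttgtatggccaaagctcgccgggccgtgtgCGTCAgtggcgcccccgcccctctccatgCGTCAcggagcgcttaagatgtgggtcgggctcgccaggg
Dusp1: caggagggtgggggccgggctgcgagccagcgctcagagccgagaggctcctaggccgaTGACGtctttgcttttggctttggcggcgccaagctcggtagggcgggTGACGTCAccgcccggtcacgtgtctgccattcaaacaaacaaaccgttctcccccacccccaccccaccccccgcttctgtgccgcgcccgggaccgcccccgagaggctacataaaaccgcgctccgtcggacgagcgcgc

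The half-site TGACG was present in all 5 windows, with 2 copies for Fos, 1 for Fosb, 2 for Npas4, 4 for Nr4a1 and 3 for Dusp1, and in 17.8% of all 32841 promoters of the same length in the table. Of these copies, 2 of Dusp1 overlap within a full cAMP response element, TGACGTCA, which lies 143 to 136 bases before the start and is held by 1.55% of all promoters. No window held the AP-1 site TGANTCA (6.75% of all promoters), the EGR site GCGTGGGCG (0.536%) or a CArG box, the element bound by SRF (1.47%). The CArG box was searched as CCWWWWWWGG, where W is A or T. Inexact matches and bases further upstream were not searched, so these promoters may hold such elements outside the windows or in other letters. A match describes the letters in the window and does not show that a factor binds there. The half-site was present both in genes that were lower after ONC and in Dusp1, which was higher.

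Among all 14234 genes tested between conditions with the quasi-likelihood test of edgeR, 3026 (21.3%) were higher and 3230 (22.7%) lower in injured RGCs at an adjusted p under 0.05. Of the 10 immediate early genes, 8 passed the filter on low counts, of which 3 were higher (Egr1, Ier2 and Dusp1), 4 were lower (Fos, Fosb, Npas4 and Nr4a1) and Arc was not past the threshold. Egr2 and Egr3 were too low to be tested. The median log2 fold change of the 8 tested genes was -0.56, against -0.03 for all genes tested, and their median size irrespective of direction was 2.24, against 0.49. Every injured sample lay above every uninjured sample for Egr1, Ier2 and Dusp1, an order held by 21.9% of the genes tested, and below every uninjured sample for Fos, Npas4 and Nr4a1, an order held by 21.1%. Counts of 3 and 4 out of 8 are thus to be read against a background in which more than 2 in 5 genes were called. For Npas4 the gap between injured and uninjured samples was within counting error.

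**Figure D1:**
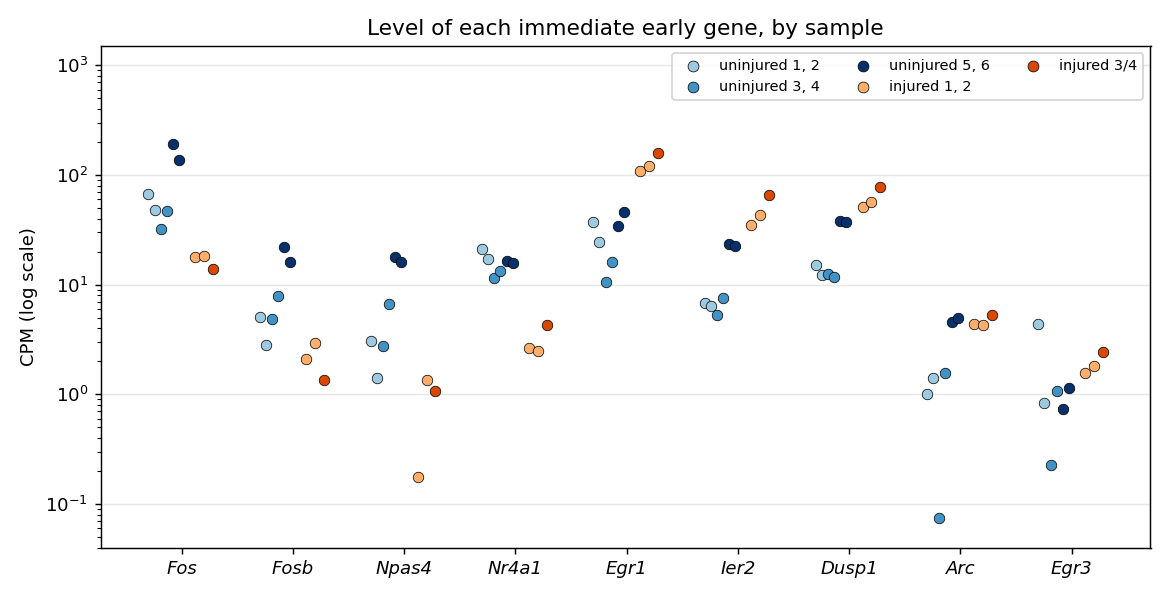
Level of each gene in CPM (log scale) in each of the 6 uninjured and 3 injured samples, with 1 point per sample and injured 3/4 as the average of 2 libraries. Egr2 is left out because it was 0 in all samples but 1. Fos, Npas4 and Nr4a1 are lower and Egr1, Ier2 and Dusp1 higher in every injured sample, for Npas4 by a gap within counting error. Uninjured 5 and 6 stand above uninjured 1 to 4 for Fos, Fosb, Npas4, Ier2, Dusp1 and Arc.

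Fos encodes a subunit of the transcription factor AP-1 and was the most abundant of these genes in uninjured RGCs. It ranged from 32.4 CPM in uninjured 3 through a median of 57.7 to 192 CPM in uninjured 5, and was 17.7, 18.2 and 13.8 CPM in injured 1, injured 2 and injured 3/4. The injured values lay close together and below all uninjured values, whereas uninjured values spread 5.92-fold. On the log2 scale the fold change came to -2.39 (standard error, SE, 0.57, edgeR adjusted p = 0.00491), and every injured sample was below the uninjured median.

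Fosb, a second partner of Jun proteins in AP-1, was less abundant, at 2.80 to 22.1 CPM in uninjured samples (median 6.45) and 2.10, 2.92 and 1.34 CPM in injured samples. Injured 2 was slightly above uninjured 2, so the groups overlapped. This amounted to a log2 fold change of -2.25 (SE 0.66, edgeR adjusted p = 0.0165). It was not past the threshold without injured 1 (-2.26, adjusted p = 0.0584) or without injured 3 and 4 (-1.95, adjusted p = 0.0847), and over all settings the adjusted p ranged from 8.78e-07 to 0.138.

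Npas4, a transcription factor that in neurons responds to calcium entry, was 1.40 to 18.02 CPM in uninjured samples (median 4.83) and 0.175, 1.35 and 1.07 CPM in injured samples. Injured 1 held a single UMI of this gene. Injured 2 held 6 UMIs and uninjured 2, the lowest uninjured sample, held 5, so their order is within counting error. On the log2 scale the fold change came to -3.20 (SE 0.93, edgeR adjusted p = 0.0149), and the highest injured sample lay just under the lowest uninjured sample. Without injured 1 it was -2.73 (adjusted p = 0.0676), without injured 3 and 4 it was -3.45 (adjusted p = 0.0534), and over the settings in which it was tested the adjusted p ranged from 7.21e-07 to 0.218. Fosb and Npas4 thus lost the call without injured 1 or without injured 3/4. They kept it without injured 2 (adjusted p = 0.0372 and 0.0384) and without any single uninjured sample.

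Nr4a1 encodes an orphan nuclear receptor, also known as Nur77. It was 11.4 to 21.2 CPM in uninjured samples (median 16.1) and 2.63, 2.47 and 4.30 CPM in injured samples. Of the members tested it varied least among uninjured samples, with a coefficient of variation of 21.1% against 48.0% to 90.8% for the other 7. This amounted to a log2 fold change of -2.27 (SE 0.26, edgeR adjusted p = 3.12e-05), with every injured sample below every uninjured sample.

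Egr1, a zinc finger transcription factor, moved the other way. It was 10.6 to 46.2 CPM in uninjured samples (median 29.6) and 108, 121 and 160 CPM in injured samples, and became the most abundant of these genes after ONC. All injured samples were more than 2-fold above the highest uninjured sample, uninjured 6. On the log2 scale the fold change came to 2.24 (SE 0.36, edgeR adjusted p = 0.000377).

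Ier2, a nuclear protein of the early growth response, was 5.34 to 23.4 CPM in uninjured samples (median 7.11) and 35.2, 43.1 and 65.3 CPM in injured samples. Fitted over all samples, the log2 fold change came to 2.03 (SE 0.45, edgeR adjusted p = 0.0031). Injured 3/4 was highest, and no injured sample lay within the uninjured range.

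Dusp1, a phosphatase that inactivates MAP kinases and so ends the signal that induces these genes, was 11.8 to 37.9 CPM in uninjured samples (median 13.9) and 51.1, 56.6 and 77.9 CPM in injured samples. Fitted in the same way, the log2 fold change came to 1.56 (SE 0.39, edgeR adjusted p = 0.00642), again with no overlap between groups. Among genes counted in these files, the annotated Dusp1 locus overlaps Ergic1 and a pair of long noncoding RNAs, and the strand setting of the counting is not given in the sources used here. Of the noncoding RNAs, Gm50275 had 0 UMIs and Gm56886 had 7, whereas Ergic1, on the opposite strand, was 40.7 CPM in uninjured and 52.0 CPM in injured samples on average.

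Arc, a synaptic protein that promotes removal of glutamate receptors, was 0.0752 to 4.98 CPM in uninjured samples (median 1.48) and 4.38, 4.27 and 5.24 CPM in injured samples. The lowest value, in uninjured 3, came from 1 UMI. The groups overlapped, because uninjured 5 and 6 reached the injured level. Its log2 fold change of 1.13 (standard error 0.70) was not past the threshold (adjusted p = 0.213 from edgeR).

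Egr3, a relative of Egr1, rested on 54 UMIs in uninjured and 53 UMIs in injured libraries. It was 0.226 to 4.38 CPM in uninjured samples (median 0.955), with uninjured 1 well above the others, and 1.58, 1.80 and 2.42 CPM in injured samples. All 3 injured samples were above the uninjured median but below uninjured 1 (p = 0.286 in an exact permutation test, two-sided, on log2 levels, where the smallest p that 6 against 3 samples allow is 0.0238). Egr2 had 1 UMI over the 10 libraries together, in uninjured 4. A count of 0 in the other libraries allows up to 0.237 CPM in uninjured 3, the deepest of them, and up to 1.06 CPM in uninjured 1, the shallowest, so Egr2 was not detectable in RGCs at this depth rather than shown to be absent.

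In the GENCODE annotation of GRCm39, Fos (ENSMUSG00000021250.15) lies at chr12:85520658-85524047, Fosb (ENSMUSG00000003545.4) at chr7:19036621-19043976, Npas4 (ENSMUSG00000045903.11) at chr19:5034382-5040344 and Nr4a1 (ENSMUSG00000023034.9) at chr15:101151980-101172681. Egr1 (ENSMUSG00000038418.10) lies at chr18:34992876-34998049, Ier2 (ENSMUSG00000053560.6) at chr8:85387960-85389483, Dusp1 (ENSMUSG00000024190.9) at chr17:26724564-26781102 and Arc (ENSMUSG00000022602.16) at chr15:74540932-74544419. Egr2 (ENSMUSG00000037868.16) lies at chr10:67371305-67378018 and Egr3 (ENSMUSG00000033730.6) at chr14:70314350-70320063. Their canonical transcripts are short, from 1524 bases in a single exon for Ier2 to 4496 bases in 2 exons for Egr1, and Npas4 has the most exons, 8. Levels of different genes are compared here as UMI counts from the 3′ end of transcripts, which are not scaled by length.

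Uninjured 5 and 6 had more of most of these genes than uninjured 3 and 4. Fos averaged 57.7 CPM in uninjured 1 and 2, 39.4 CPM in uninjured 3 and 4 and 164 CPM in uninjured 5 and 6. Relative to uninjured 3 and 4, uninjured 5 and 6 were 4.17-fold higher for Fos, 3.01-fold for Fosb, 3.63-fold for Npas4, 3.03-fold for Egr1, 3.57-fold for Ier2, 3.09-fold for Dusp1 and 5.85-fold for Arc. A ratio of at least 3, a level chosen after the values were seen, was thus reached by 7 of the 10 genes, against 0.850% of 14210 tested genes, for which the median ratio was 0.957. Relative to uninjured 1 and 2 it was reached by 4 genes, Npas4 (7.69-fold), Fosb (4.855-fold), Arc (3.97-fold) and Ier2 (3.47-fold), against 1.64% of 14116 genes. Uninjured 1 and 2 held 9 and 5 UMIs of Npas4, 15 and 10 of Fosb and 3 and 5 of Arc. Uninjured 3 held 1 UMI of Arc. Ratios to such low counts are imprecise. Relative to uninjured 1 and 2, Fos was 2.85-fold, Dusp1 2.745-fold and Egr1 1.31-fold higher. Egr1, at 30.9, 13.3 and 40.4 CPM in the 3 pairs, was thus mainly low in uninjured 3 and 4. Nr4a1 did not follow this pattern, at 19.2, 12.4 and 16.1 CPM in the 3 pairs. Of the genes that handling of tissue is known to induce, Hspa1a was 21.45 and 25.45 CPM in uninjured 5 and 6 against 6.15 to 16.3 CPM in uninjured 1 to 4, Hspa1b 8.62 and 6.63 against 0.584 to 2.80 CPM, Dnajb1 32.5 and 33.2 against 18.7 to 24.4 CPM and Hspe1 220 and 233 against 146 to 166 CPM (of library totals). Hsp90aa1 went the other way, at 968 and 911 against 1137 to 1456 CPM, Hsph1, Hspb1 and Hspa8 overlapped, and the 8 heat shock genes together were lowest in uninjured 5 and 6 (2923 and 2807 against 2991 to 3118 CPM). Other measures also set these 2 libraries apart from uninjured 1 to 4. The amacrine markers summed to 80.4 and 56.5 against 156.5 to 218 CPM. Of the RGC markers, Sncg (2711 and 3130 against 1496 to 2271 CPM) and Tubb3 (747 and 737 against 393 to 514 CPM) were more abundant, whereas Rbpms (596 and 620 against 715 to 801 CPM), Slc17a6 (366 and 344 against 382 to 494 CPM) and Pou4f1 (238 and 231 against 268 to 356 CPM) were less so. Malat1, a nuclear RNA, held 1.72% and 1.83% of UMIs against 3.03% to 4.88% (6.09% to 8.01% in injured libraries), and the median cell held 20437 and 21977 against 27732 to 34337 UMIs. The part of any of these in the difference between uninjured libraries was not tested.

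The choice of uninjured reference therefore set the size of the injury difference for most of these genes. Fos was lower after ONC against each pair, by a log2 fold change of -1.82 against uninjured 1 and 2, -1.28 against uninjured 3 and 4 and -3.32 against uninjured 5 and 6. Nr4a1 differed little with the reference, at -2.57, -1.94 and -2.30. Egr1 was higher against each pair, at 2.06, 3.26 and 1.70, as were Ier2, at 2.85, 2.88 and 1.08, and Dusp1, at 2.17, 2.35 and 0.73. All 5 genes remained past the threshold against each pair. Fosb was -0.94 against uninjured 1 and 2, which is not past the threshold (adjusted p = 0.123 from edgeR), and -1.67 and -3.23 against the other pairs, where it was. Npas4 was filtered out against uninjured 1 and 2. It was -2.50 against uninjured 3 and 4 (adjusted p = 0.00548 from edgeR) and -4.28 against uninjured 5 and 6 (adjusted p = 7.21e-07). Arc was higher against uninjured 1 and 2 (1.89, adjusted p = 0.00402) and uninjured 3 and 4 (2.27, adjusted p = 0.0156), but not against uninjured 5 and 6 (-0.02, adjusted p = 0.95). Egr3, which passed the filter against the first 2 of these pairs only, was -0.36 against uninjured 1 and 2 (adjusted p = 0.66) and 1.41 against uninjured 3 and 4 (adjusted p = 0.0462). These comparisons share the injured samples and are not independent of each other.

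**Figure D2:**
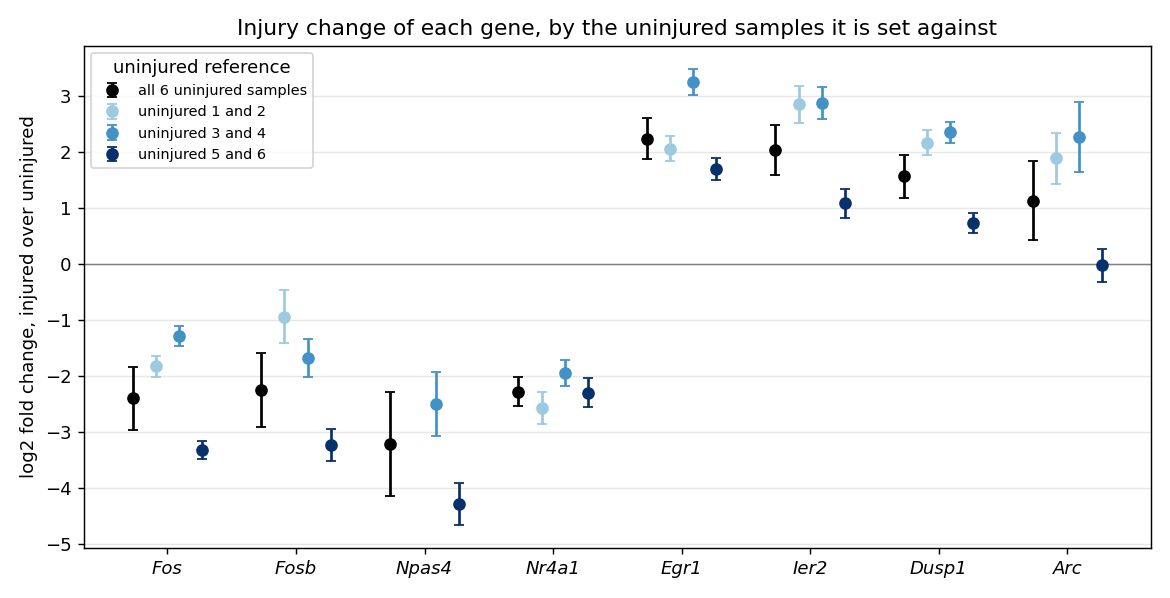
Log2 fold change (with standard error) of each tested gene between injured and uninjured samples, set against all 6 uninjured samples or against each pair of similar uninjured libraries alone. Npas4 was filtered out against uninjured 1 and 2. Of the 8 genes shown only Arc lies on both sides of 0, from 2.27 to -0.02, and Nr4a1 differs least between references.

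Without injured 3 and 4, in which mCherry was common, the log2 fold change was -2.25 for Fos, -2.58 for Nr4a1, 2.08 for Egr1, 1.76 for Ier2 and 1.38 for Dusp1, all past the threshold. That comparison rests on injured 1 and 2, in which Xist was common. Without injured 1 and 2, so that injured 3/4 stood alone against 6 uninjured samples, the fold change was 2.54 for Egr1 (adjusted p = 0.0101), 2.48 for Ier2 (adjusted p = 0.0262), -1.85 for Nr4a1 (adjusted p = 0.00953) and 1.90 for Dusp1, just past the threshold (adjusted p = 0.04998). Fos kept its direction but was not past the threshold (-2.64, SE 1.06, adjusted p = 0.115), and neither were Fosb (-2.85, adjusted p = 0.138) and Npas4 (-2.87, adjusted p = 0.218). With 1 injured sample this comparison has no spread among injured samples, and the part of sex and reporter in the injury differences was not tested. Within injured 3 and injured 4, which are largely the same cells and count as 1 sample, cells with mCherry had more Ier2 than cells without it (72.2 against 22.7 CPM and 82.4 against 47.6 CPM), whereas in injured 1 and 2 they had less (19.2 against 41.1 CPM and 33.1 against 40.9 CPM). Egr1 was 168 against 141 CPM and 164 against 146 CPM in injured 3 and 4. In injured 1 and 2 Egr1 was 115 against 105 CPM and 88.2 against 152 CPM. Fos was 17.0 against 2.27 CPM and 23.7 against 0 CPM in injured 3 and 4. In injured 1 and 2 Fos was 4.81 against 12.05 CPM and 14.7 against 11.5 CPM. Dusp1 was 83.95 against 50 CPM and 75.3 against 53.6 CPM in injured 3 and 4. In injured 1 and 2 Dusp1 was 57.7 against 51.8 CPM and 25.7 against 68.0 CPM. Cells without mCherry UMIs numbered 55 and 42 in injured 3 and 4, and cells with them 26 and 34 in injured 1 and 2, after cells were thinned as described next.

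Shares of cells with a UMI depend on depth, so every cell was thinned to 8000 UMIs, which left out 29 uninjured and 233 injured cells that held fewer. These cells may differ from the rest, because in all 4 injured libraries the cells under the median depth had more Egr1 (125 to 205 CPM against 84.6 to 146 CPM in the deeper cells), Ier2 (50.3 to 90.1 against 26.9 to 63.6 CPM) and Dusp1, and in 3 of 4 they had less Fos. A Fos UMI then remained in 24.2% ± 12.9 (SD, n = 6) of cells from uninjured libraries and in 5.56% ± 0.579 (SD, n = 3) from injured ones, and in 42.0% and 7.89% of cells before thinning. By library the thinned share of Fos was 12.7% to 18.9% in uninjured 1 to 4 and 40.7% and 40.5% in uninjured 5 and 6. For Nr4a1 the shares were 9.95% ± 1.93 without injury and 1.67% ± 1.10 after ONC (29.5% and 3.49% before thinning). Npas4 was found in 5.32% ± 4.37 and 0.862% ± 0.805, and Fosb in 6.25% ± 3.51 and 1.17% ± 0.143 (12.1% and 0.989%, and 12.9% and 2.10%, before thinning).

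Egr1 went from 14.7% ± 7.79 (SD, n = 6) of uninjured to 45.8% ± 5.68 (SD, n = 3) of injured cells, close to 1 cell in 2 (29.6% and 58.3% before thinning, where injured cells were shallower). Dusp1 was found in 12.9% ± 6.70 and 33.6% ± 4.19 of cells, and Ier2 in 5.78% ± 1.82 and 28.1% ± 8.31 (32.8% and 46.7%, and 20.04% and 43.3%, before thinning). Ier2 differed between injured libraries, at 23.5% and 23.1% in injured 1 and 2 against 37.8% and 37.6% in injured 3 and 4. Arc was found in 1.16% ± 1.45 and 3.65% ± 1.13 of cells and Egr3 in 0.710% ± 1.24 and 1.70% ± 0.456 (4.63% and 6.95%, and 2.34% and 2.72%, before thinning). Thinned uninjured libraries held 0 to 9 cells with Arc and 0 to 3 with Egr3. Thinned injured libraries held 6 to 20 cells with Arc and 4 to 10 with Egr3. Egr2 was found in 0 thinned cells. By the study's account these are cells selected as RGCs, with no other cell type deposited, so the share that free RNA alone would give in a cell type lacking these genes could not be measured.

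**Figure D3:**
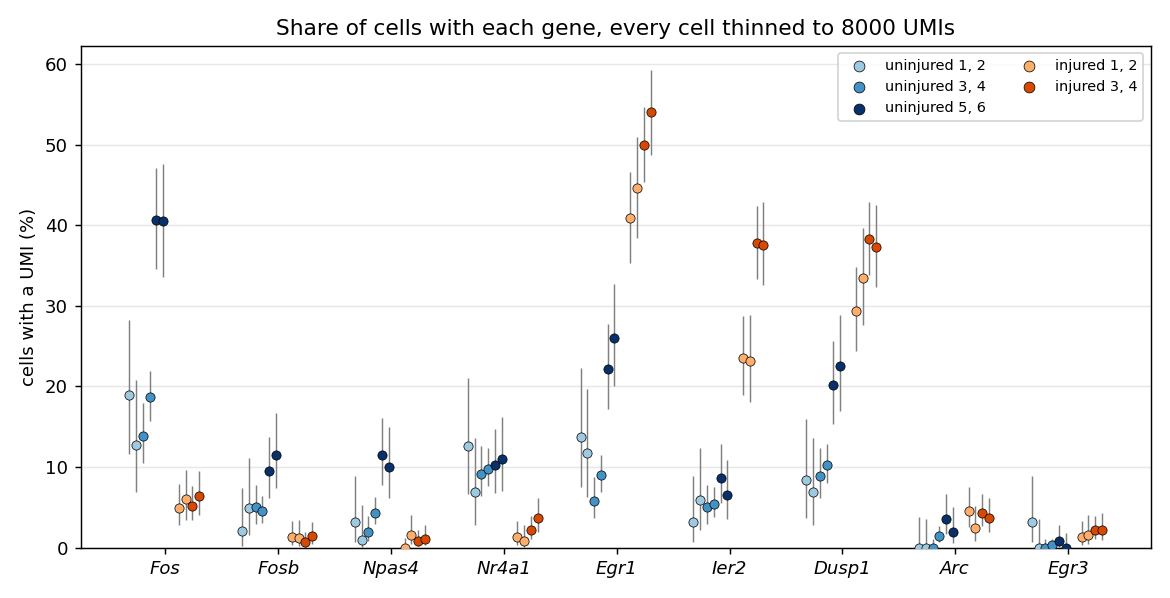
Share of cells with at least 1 UMI of each gene in each of the 10 libraries, after every cell was thinned to 8000 UMIs, with exact 95% binomial intervals that cover counting error alone. Fos is found in about 4 in 10 cells of uninjured 5 and 6 and in 4.90% to 6.41% of the cells of injured libraries, and Egr1 in 40.9% to 54.0% of the cells of injured libraries.

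Counted per cell, at least 1 of the 10 genes was found in 32.4% to 42.2% of the thinned cells of uninjured 1 to 4, in 63.2% and 66.5% of those of uninjured 5 and 6, and in 70.9%, 68.1% and 81.5% of those of injured samples. At least 5 of the genes in 1 cell occurred in 1.87% ± 1.66 (SD, n = 6) of cells without injury and 0.129% ± 0.224 (SD, n = 3) after it. Uninjured 3 and 4, at 0.278% and 0.155%, lay within the 0% to 0.557% of injured libraries, and the mean was set by uninjured 5 (4.74%) and by a few cells of uninjured 1, 2 and 6 (2.11%, 1.96% and 2.00%). At least 3 were found in 8.86% ± 7.76 and 10.2% ± 2.41. Uninjured 5 and 6 thus lay nearer to injured 1 and 2 than to uninjured 1 to 4 for cells with at least 1 of the genes, and the difference between conditions in these shares was not tested. The mean number of members per cell was 0.810 ± 0.375 in uninjured and 1.22 ± 0.197 in injured samples.

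Co-expression was described within each library over thinned cells (95 to 644 cells in uninjured and 251 to 460 in injured libraries), since cells of a library are not replicates. In uninjured RGCs the pairs with a median Spearman correlation above 0.2, a level chosen after the values were seen, were Fos with Fosb (0.295), Fos with Egr1 (0.271) and Fos with Npas4 (0.203). Of 21 pairs that could be computed in all 6 uninjured libraries, 9 were above 0 in each of them. The lowest of the 21 were Ier2 with Nr4a1 (-0.044) and Ier2 with Npas4 (-0.022), whereas Ier2 with Fos (0.073) and with Egr1 (0.072) was above 0 in all 6. The median over pairs was 0.0967 ± 0.0676 (SD, n = 6) in uninjured and 0.0239 ± 0.022 (SD, n = 3) in injured samples. Uninjured 2 and 3 (0.0342 and 0.0263) lay within the range of injured libraries (0.0017 to 0.0562), and at 4000 UMIs the means were 0.0232 and 0.0133, so the difference between conditions depends on depth and was not tested. As a reference, the median correlation of these genes with the RGC markers was -0.0391 in uninjured and -0.0065 in injured samples, and with the heat shock genes 0.0069 and -0.006. Such correlations are small, and the sparse counts of single cells limit how large they can be.

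In injured RGCs Fos with Fosb had a median correlation of 0.264, whereas Fos with Egr1 was 0.058. Among uninjured cells, Egr1 was found in 30.6% of cells with Fos (13 to 120 cells per library) and in 9.44% of cells without it (means over libraries), and was more frequent among cells with Fos in 6 of 6 libraries. Among injured cells the same shares were 56.3% and 45.2%, with 15 to 24 cells with Fos per library and more Egr1 among them in 2 of 3 samples. With so few cells, injured shares given Fos are coarse. Nr4a1 accompanied Fos in both conditions, in 22.0% against 6.63% of uninjured and in 13.0% against 0.985% of injured cells. This held in 6 of 6 and 3 of 3 samples. The injured mean was carried by injured 3/4 (25.5%), against 6.67% of 15 cells with Fos in injured 1 and again in injured 2. Only 4 thinned cells of injured 1 and 2 of injured 2 held Nr4a1 at all. Fosb likewise was found in 17.5% against 2.53% of uninjured and in 10.2% against 0.634% of injured cells, again in every sample. Injured libraries held only 3 to 5 thinned cells with Fosb, so these shares and the correlation of 0.264 rest on very few cells. Ier2 was found in 9.22% of uninjured cells with Fos and 4.14% without it, and in 21.7% and 28.5% of injured cells, where 0 of 3 samples had more among cells with Fos. Among cells with Egr1, 48.5% in uninjured libraries (12 to 58 cells each) also held Fos, against 6.96% in injured samples (112 to 230 cells per library), so most injured cells with Egr1 held no Fos UMI at this depth. The difference between conditions in these shares was not tested.

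**Figure D4:**
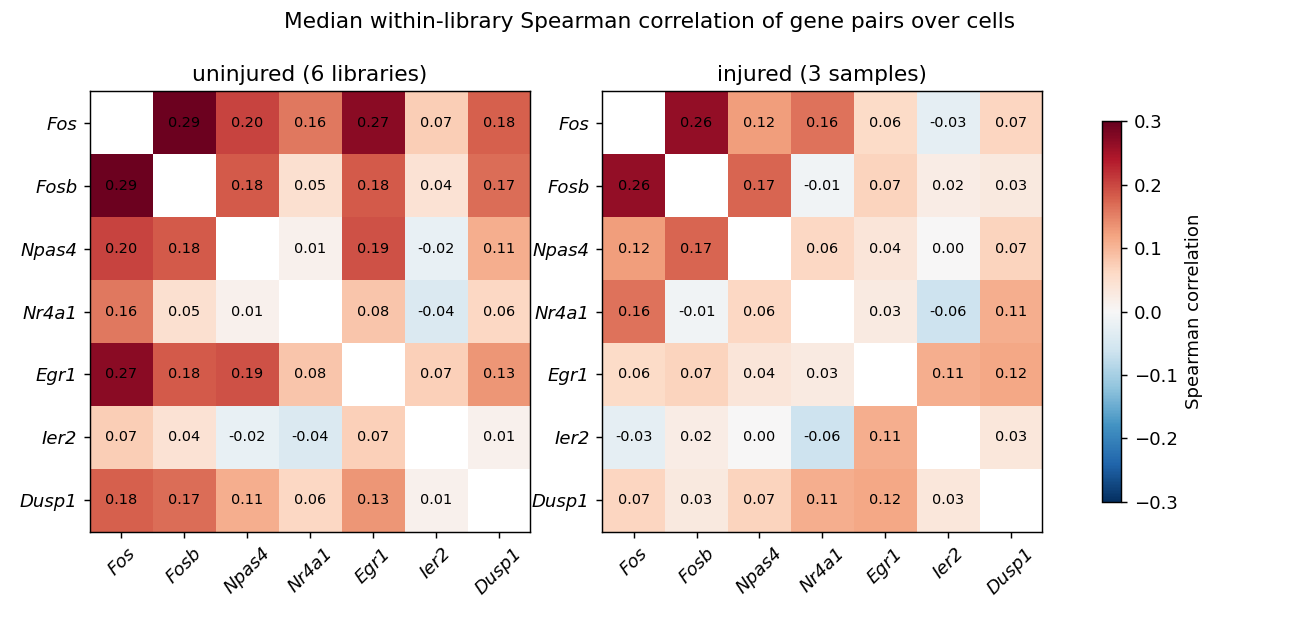
Median over libraries of the Spearman correlation of each pair of genes across thinned cells, for 6 uninjured libraries and for 3 injured samples (pairs with Npas4 rest on 2 of the 3, because no thinned cell of injured 1 held it). Fos with Fosb is 0.295 in uninjured and 0.264 in injured RGCs, and Fos with Egr1 is 0.271 and 0.058. Injured libraries held only 3 to 5 thinned cells with Fosb.

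Up to 18 UMIs of Fos remained in a single thinned cell of uninjured 5. The variance of Fos counts over the cells of a library was 2.23 to 5.73 times their mean in uninjured libraries, where random counts of equal cells give 1, and that of Dusp1 0.941 to 1.34 times.

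Levels were also compared between uninjured cells with at least 3 UMIs of an RGC subtype gene and the other cells of the same library, where at least 10 cells qualified (CPM of thinned counts, as for mCherry above). Cells positive for Opn4, which encodes the photopigment melanopsin of light-sensitive RGCs, had more Fos (128 against 30.2 CPM), Egr1 (34.7 against 10.4 CPM) and Dusp1 (47.2 against 12.1 CPM) in both libraries with enough cells. Cells positive for Eomes, a transcription factor found in the same RGCs, had enough cells in 1 library, with more Fos there (175 against 21.1 CPM). Nr4a1 had no common direction, at 6.25 against 13.1 CPM for Opn4 and 25.0 against 12.5 CPM for Eomes. Only 44 cells were positive for Opn4 and 37 for Eomes over all 6 libraries, so these values rest on few UMIs. Cells positive for Foxp2, a transcription factor of a group of RGC subtypes, had less Nr4a1 in 5 of 5 libraries (4.601 against 14.4 CPM). Fos was higher in 2 of 5, and 236 cells were positive for Foxp2 over all 6 libraries. Cells positive for Cartpt, which encodes a neuropeptide of direction-selective RGCs, did not differ in 1 direction over the 6 libraries for Fos (86.3 against 81.0 CPM, higher in 3 of 6). Cells positive for Zic1 had less Fos (51.1 against 88.0 CPM) and more Dusp1 (28.9 against 19.6 CPM) in 3 of 3 libraries, those positive for Tfap2d on average less Ier2 (3.79 against 10.45 CPM) and less Dusp1 (16.7 against 20.1 CPM), each higher in 0 of 3, and those positive for Neurod2 less Fos (9.62 against 40.8 CPM) in the only library with enough cells. Over all 6 libraries 42, 70 and 20 cells were positive for these genes. The values rest on at most that many, because libraries with fewer than 10 positive cells were left out. Of the 9 subtype genes, 5 were themselves lower in injured RGCs (Zic1 by a log2 fold change of -5.30, Neurod2 -4.56, Cartpt -3.76, Eomes -1.32 and Foxp2 -1.25) and 0 were higher, against 22.7% lower and 21.3% higher of all genes tested, and the part of subtype composition in the injury differences was not tested.

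The genes most like the summed members within uninjured cells were Junb (mean Spearman correlation 0.316 over 6 libraries), Pde10a (0.215), Jund (0.213), Adcyap1 (0.201), Eef1a1 (0.193), Mir670hg (0.189), Pcdh9 (0.187), Pcsk1 (0.175), Igf1 (0.173) and Csmd1 (0.163), out of 7358 genes compared. Junb, which pairs with Fos in AP-1, was above 0 in every library, from 0.141 to 0.424. Within injured cells they were Ddit3 (0.173 over 3 samples), 6330403K07Rik (0.163), Btg2 (0.15), Dgkh (0.136), Ddx5 (0.136), Cntnap2 (0.128), Cirbp (0.128), Sdk1 (0.127), Jund (0.126) and Junb (0.126), out of 7714 genes. Ddit3, a transcription factor of the endoplasmic reticulum stress response, was itself higher after ONC (log2 fold change 3.62, standard error 0.12, adjusted p = 2.39e-09 from edgeR), whereas Junb was not past the threshold (-0.12, standard error 0.46, adjusted p = 0.858). Across the 9 samples, the genes closest to the summed members were Serf2, Tmem11, Kctd13, Taf11 and Clns1a (Pearson correlation 0.966 to 0.969, out of 5820 genes compared), none of them past the threshold between conditions. These correlations describe samples of both conditions together.

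Other rapid response genes, a list of 28 genes with 26 tested, included 14 higher and 5 lower genes after ONC, with a median log2 fold change of 0.77. This list and those that follow are to be read against all genes tested, of which 21.3% were higher and 22.7% lower. Atf3, a transcription factor induced by axon injury, was 0.808 ± 0.888 CPM in uninjured (SD, n = 6) and 799 ± 36.9 CPM in injured samples (SD, n = 3), a log2 fold change of 9.37. Jun, the main partner of Fos proteins in AP-1, went from 64.1 ± 21.9 to 510 ± 48.5 CPM (2.99). Fosl1, another Fos family member, was 0.192 ± 0.174 and 3.39 ± 0.617 CPM (3.59), and Fosl2 was 4.30 ± 2.50 and 17.7 ± 1.49 CPM (2.14), so both rose while Fos and Fosb fell. Among the lower genes were Egr4 (-3.61, standard error 1.24), which was 11.8 and 8.98 CPM in uninjured 5 and 6 but only 0.704 to 2.05 CPM in uninjured 1 to 4 and 0 to 0.638 CPM in injured libraries (of library totals), and the Nr4a1 relative Nr4a3 (-1.74, standard error 0.52), as well as Ier3 (-2.01), Klf10 (-1.28) and Nfkbia (-0.85). Csrnp1 (3.48), Klf6 (2.28), Klf4 (2.25), Ier5 (2.16) and Ppp1r15a (1.52) were also higher. The Fos family thus held calls in both directions, with Fos and Fosb lower and Fosl1 and Fosl2 higher. In the Egr family Egr1 was higher, and the size of the lower Egr4 rests largely on uninjured 5 and 6. Of the NR4A family, Nr4a1 and Nr4a3 were lower and Nr4a2 was not past the threshold (-0.48, adjusted p = 0.471).

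**Figure D5:**
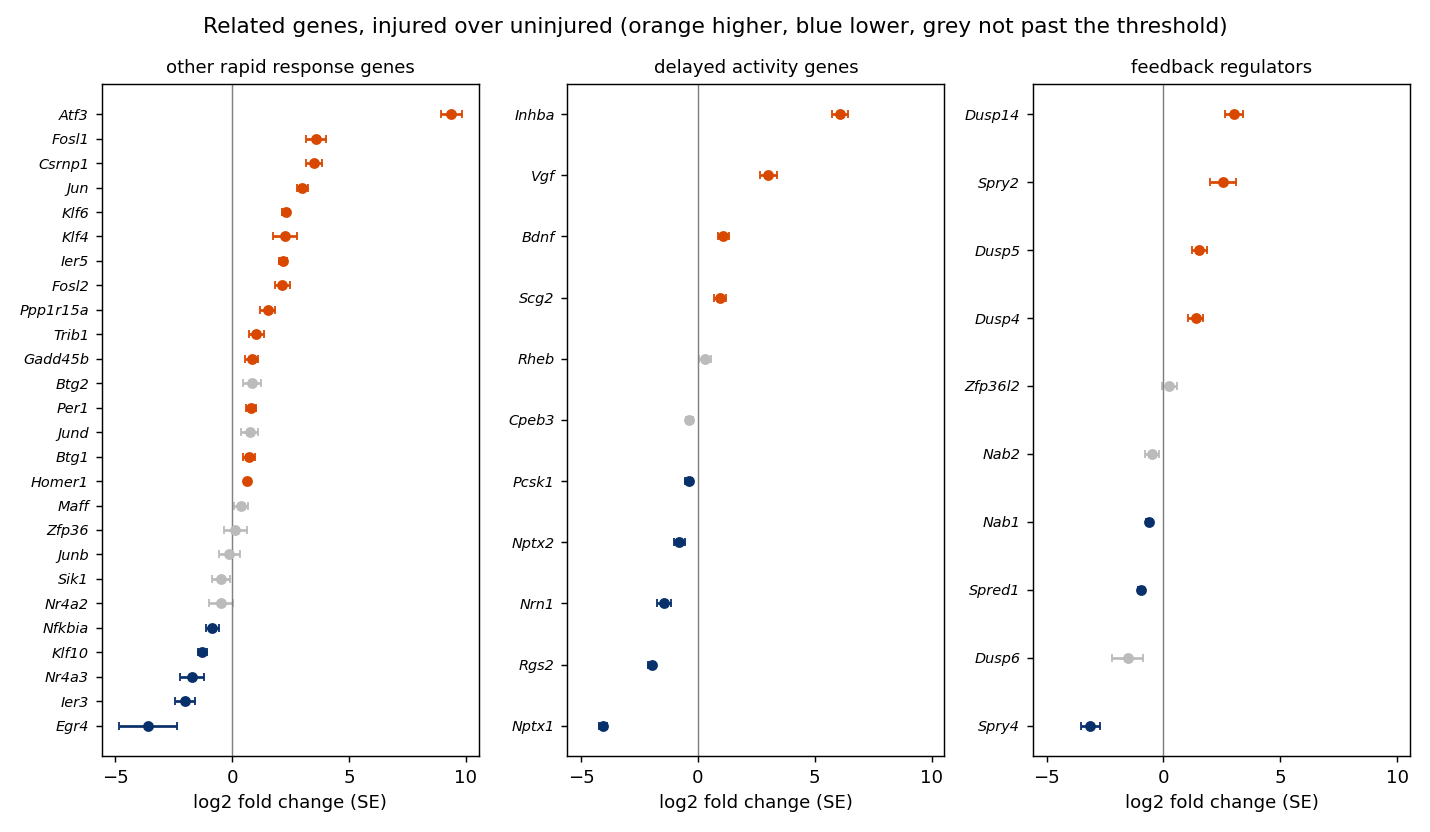
Log2 fold change with standard error of the tested genes of 3 related lists, injured over uninjured, with genes past the threshold in orange (higher) or blue (lower). Atf3 at 9.37 and Inhba at 6.08 are the highest, and Nptx1 at -4.05 is the lowest.

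Delayed activity genes, which are induced after the immediate early factors, had 4 higher and 5 lower genes of 11 tested (median -0.36). Inhba, a subunit of activin, was higher by a log2 fold change of 6.08 (standard error 0.36), Vgf, a neuropeptide precursor, by 3.02, and the neurotrophin gene Bdnf by 1.10 (52.8 ± 14.5 CPM in uninjured and 114 ± 7.70 CPM in injured samples). The synaptic pentraxin Nptx1 was lower, with a log2 fold change of -4.05 (148 ± 12.4 and 8.87 ± 2.33 CPM) and Rgs2, a regulator of G protein signaling, was lower with -1.98. Feedback regulators, which restrain the inducing pathways, had 4 higher and 3 lower genes of 10 tested (median -0.12). Dusp14 (3.02), Spry2 (2.56), Dusp5 (1.54) and Dusp4 (1.38) were higher, while Spry4 (-3.13), Spred1 (-0.97) and Nab1, a repressor of EGR factors (-0.61), were lower.

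Upstream kinases and factors had 11 higher and 11 lower genes of 37 tested (median 0.03). The CREB relative Crem averaged 28.4 ± 2.28 CPM in uninjured and 116 ± 6.06 CPM in injured samples (2.03 on the log2 scale, SE 0.11), and the SRF partners Elk3 (2.17) and Mrtfa (1.89) were also higher, while Srf itself was lower (-1.39, standard error 0.50, adjusted p = 0.0418 from edgeR). Calcium-dependent kinases were lower for Camk4 (66.9 ± 18.4 and 10.4 ± 1.52 CPM, -2.69), Camk2a (-1.96) and Camk2b (-1.24) but higher for Camk2d (1.07), and the channel genes Grin1 (-1.09) and Cacna1d (-1.11) were lower. Of the 8 heat shock genes, Hspb1 (1.43) and Hsp90aa1 (1.303) were higher and 0 were lower (median -0.17), and their summed level was 4579, 4930 and 3714 CPM in injured 1, injured 2 and injured 3/4.

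Markers of other retinal cells were followed beside these results. The summed level of 7 markers of Mueller glia was 205 to 282 CPM in uninjured samples and 398, 450 and 298 CPM in injured samples, where Clu was the most abundant. Of the 7, Sox9 (4.87), Rlbp1 (2.13), Clu (1.56) and Glul (0.91) were higher and Dkk3 (-2.50) and Apoe (-2.14) lower after ONC, so the list did not move in 1 direction. The 7 amacrine markers summed to 56.5 to 218 CPM in uninjured and 324, 277 and 266 CPM in injured samples, but in injured libraries C1ql2 alone was 173 to 218 CPM, against 7.06 to 30.1 CPM in uninjured libraries. C1ql2 (3.44) and Slc6a9 (1.64) were higher, whereas the other 5 lay below 0 without passing the threshold, and the median of the list was -0.575, so the higher sum rests mostly on C1ql2 and not on the list as a whole. Of the 7 RGC markers, Tubb3 (1.215) was higher and Pou4f1 (-1.44), Rbpms (-1.21), Sncg (-1.06) and Nefl (-0.79) lower. Microglia and macrophage markers summed to 4.92 to 19.3 CPM and to 12.3, 17.7 and 6.03 CPM, and rods, cones, endothelium and astrocytes to at most 31.1 CPM in any sample. Bipolar markers, in every library mostly Prkca, summed to 77.4 to 143 CPM in uninjured and to 109 to 152 CPM in injured samples, and horizontal cell markers to 21.1 to 159 CPM and to 59.4 to 70.0 CPM. With cells holding 3 or more markers of another class left out, 944 of 1683 uninjured and 1306 of 1609 injured cells were kept. Among these, the log2 fold change was -2.31 for Fos, -2.07 for Nr4a1, 2.54 for Egr1, 2.25 for Ier2 and 1.77 for Dusp1, all past the threshold. Markers were counted before thinning, where uninjured cells were deeper, so this step may also select cells by depth.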

How the data were processed

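The deposited files hold UMI counts per cell and gene, which the authors made with Cell Ranger on mm39 from cells they had selected as RGCs. The study's methods and the labels differ on the program version, the kit, the sequencer and the depletion steps, which was not resolved. The study's number of selected RGCs matches the deposited uninjured cells but not the injured ones, with or without shared barcodes, for which no reason is given. For every library the cells' counts were added up, injured 3 and 4 were averaged, and all genes were tested with edgeR 4.0.16 (R 4.3.3; filter on low counts, TMM scaling, robust quasi-likelihood test). The p-values were adjusted by Benjamini-Hochberg over all genes tested, and the threshold was 0.05. Standard errors beside edgeR fold changes are the size of the log2 fold change divided by the square root of the test's F statistic. DESeq2 1.42.0 was an alternative. Levels of members and of single named genes are CPM scaled by TMM factors, with the exceptions that follow. Summed marker and heat shock levels are CPM of library totals. So are levels by library of single marker genes, heat shock genes and Egr4, and the upper limits for Egr2. Levels by mCherry or subtype gene are CPM of thinned counts, and levels by cell depth are CPM without TMM factors. The authors had set a maximum of UMIs per cell, and no further step against doublets was run. Shares and correlations used cells thinned at random to 8000 UMIs (numpy 2.4.6, scipy 1.17.1). Intervals and floors (3 counts) cover counting error only. The members and lists were chosen with earlier results of these data known. Named were all members, at least the 2 highest and 2 lowest called genes of each list of related genes (cell type markers were a separate list of sums), and the genes most like the summed members.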

Additional observations from a re-analysis of the deposited data

Results flagged for a closer look

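Of 22 measures examined over the 6 uninjured samples, 3 had a sample far from the others, where chance alone does so for about 1 in 20 groups. Egr3 was 4.38 CPM in uninjured 1, against 1.13 CPM in the next sample. The share of thinned cells with an Egr3 UMI was 3.16% in uninjured 1, which is 3 of 95 cells, against 0.79% in the next library. Egr2 was 0.0411 CPM in uninjured 4, from 1 UMI, and 0 elsewhere.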

How the results depend on the processing

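Fos, Egr1, Nr4a1, Ier2 and Dusp1 kept their direction and remained past the threshold under the 25 alternatives with more than 1 injured sample, with log2 fold changes of -3.32 to -1.28, 1.70 to 3.26, -2.58 to -1.94, 1.08 to 3.10 and 0.73 to 2.38. All genes past the threshold ranged from 4181 to 8569. Higher members numbered 5 against uninjured 3 and 4 alone. Lower members numbered 2 without injured 3 and 4 and against uninjured 1 and 2 alone.

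The alternative without injured 1 and 2, in which Xist is common, was chosen after seeing the data and leaves injured 3/4 alone against 6 uninjured samples, which alone supply the spread for its p-values. There 3160 genes passed the threshold, with 3 higher members and 1 lower member (Nr4a1, -1.85), and Dusp1 only just passed (adjusted p = 0.04998). Fos (-2.64, adjusted p = 0.115), Fosb (-2.85, adjusted p = 0.138) and Npas4 (-2.87, adjusted p = 0.218) were not past it.

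Fosb was not past the threshold without injured 3 and 4 (-1.95, adjusted p = 0.0847 from edgeR) or against uninjured 1 and 2 (-0.94, adjusted p = 0.123). Npas4 was not past it without injured 3 and 4 (-3.45, adjusted p = 0.0534), and it was filtered out against uninjured 1 and 2 and in both fits of libraries 1 to 4. Arc passed the threshold in libraries 1 to 4 with the replicate block (2.44, adjusted p = 0.00666) and without it (2.23, adjusted p = 0.0015), against uninjured 1 and 2 (1.89, adjusted p = 0.00402) and against uninjured 3 and 4 (2.27, adjusted p = 0.0156), and was -0.0231 against uninjured 5 and 6 (adjusted p = 0.95), a range of 0.0015 to 0.95. Uninjured 5 and 6 are absent from the fits of libraries 1 to 4, which also enter injured 3 and 4 as separate samples, and otherwise the cause was not tested. With the replicate block 7782 genes passed the threshold, and 8230 without it. Libraries of the same number did not vary together across genes (r of -0.101, 0.053, -0.054 and -0.101).

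With each replicate left out in turn, higher members stayed at 3 and lower members ranged from 2 to 4, with 2 when injured 1 was left out. The log2 fold change ranged from -2.55 to -1.995 for Fos, -2.52 to -1.84 for Fosb, 2.07 to 2.46 for Egr1, -2.35 to -2.14 for Nr4a1, 1.88 to 2.36 for Ier2, 0.80 to 1.53 for Arc, -3.54 to -2.73 for Npas4 and 1.44 to 1.82 for Dusp1, and all genes past the threshold from 4961 to 6420.

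The difference in share of cells (injured minus uninjured, percentage points) before thinning was -34.1 for Fos, -10.8 for Fosb, -26.1 for Nr4a1, -11.1 for Npas4 and 13.9 for Dusp1. At 4000 UMIs it was -4.59 for Nr4a1, -2.85 for Fosb, -2.64 for Npas4, 12.1 for Ier2, 0.888 for Arc and 12.4 for Dusp1. For Egr3 the difference was -0.043 at 4000 UMIs and 0.991 at 8000 UMIs, so the sign changed. At 12000 UMIs the difference was -12.2 for Nr4a1. The median correlation over pairs was 0.184 in uninjured and 0.0498 in injured cells before thinning, and 0.0232 in uninjured and 0.0133 in injured cells at 4000 UMIs, where uninjured 1 to 4 lay below 0 (-0.0171 to -0.0099) and only uninjured 5 (0.145) and 6 (0.0489) above it. Depth thus sets the size of shares and correlations.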
